A study of Rattus norvegicus with 6 samples.

Results

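The cluster described here is the stretch of rat chromosome 1 between positions 115000000 and 117000000 (build rn4) as it was tiled on a methylation array. It comprises 15 of the 16123 tiled regions of the array, named R1 to R15 in order of position, where a region joins probes at gaps of at most 1000 bp. These regions hold all probes that lie wholly inside the stretch, 1138 of 172669 (0.659%). The stretch itself was chosen by measured values, namely low ratios and runs of probes with a higher ratio in exposed offspring. Ratios and group differences of its probes are therefore given as a description. Where counts past a limma threshold, run over the whole array, are given below, they describe the same values that led to the choice, and they support nothing about the cluster.

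The series examined DNA of newborn hearts from rats whose dams had been exposed to fine particulate matter (PM2.5) or not. All animals were SD (Sprague-Dawley) rats at day 1 after birth, and the tissue is labelled cardiac muscle. Control offspring (3 arrays) came from dams that received 30 µL of saline into the trachea under ether during pregnancy, and PM2.5 offspring (3 arrays) from dams that received the same volume of a PM2.5 suspension. The labels mention different concentrations of the suspension. The sources used here do not give the concentration these dams received, the sex of the pups or whether the replicates came from separate litters. Heart tissue holds several cell types, and no marker of tissue can be read from these files. Any p-value here measures the spread between these arrays only.

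Methylated DNA immunoprecipitation (MeDIP) enriches DNA fragments with an antibody against 5-methylcytosine, and the enriched DNA is hybridised beside untreated input DNA of the same sample. In mammals most methylated cytosines stand in CpG dinucleotides. A fragment with few CpGs is captured poorly even when each of them is methylated, so a low ratio can mean few CpGs as well as little methylation. Here the immunoprecipitated DNA carried Cy5 and the input Cy3. The log2 ratio of Cy5 over Cy3, centred on each array's own median, is called the ratio below. No gene, exon or promoter is named for any position, since the scanner files carry neither gene names nor probe sequences.

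The 15 regions lay unevenly along the stretch. The first probe started at 115312109 and the last ended at 116712483, an extent of 1400 kb of which 16.9% (237 kb) was tiled. The first block held R1 from 115312109 to 115362781 with 276 probes and R2 from 115364040 to 115378383 with 61 probes. After a gap of 576 kb came a second block of R3 to R12, from 115954592 to 116107412. R13 stood apart at 116165050 to 116215045 with 243 probes, and R14 and R15, with 10 and 11 probes, lay beyond a further gap of 378 kb. Within regions the starts of neighbouring probes were 162 bp apart at the median, as on the whole array. Regions with over 100 probes were R1, R3, R8 and R13, which are 4 of the 89 such regions on the array, where a region had a median of 10 probes.

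The nearest tested regions outside the stretch were far from it. The one below, from 111592167 to 111594122, ended 3718 kb before R1, with a ratio of -0.23 ± 0.14 on control arrays and -0.11 ± 0.158 on PM2.5 arrays (SD, n = 3 each). The one above, from 118398446 to 118400042, started 1686 kb after R15, with -0.18 ± 0.222 and 0.05 ± 0.158. The groups overlapped in both of these regions. They rest on 4 and 2 probes, so they mark the edge of the tiling rather than a measured boundary of the low ratios.

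Probes of the cluster were long and dim. Their mean length was 55.9 nt against 49.3 nt over the array, and 49.9% of them had the greatest length of 60 nt against 13.7%. Probes of tiling arrays are commonly lengthened where the DNA is rich in A and T, to keep their binding strength alike. Input signal was well above background on all 6 arrays at 639 of the 1138 probes (56.2%), against 78.6% over the array, and 219 of them had no array with such an input. Spots that the scanner software marked as uneven or as outliers removed 147 of the 639, which left 492 probes unmarked on all arrays. These 492 are the probes averaged below, with 129 in R1, 130 in R13 and 71 in R8. R5 is a single probe without sufficient input and was not averaged, and R14 and R15 rest on 3 probes each.

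The whole cluster lay below the centre of every array. Its median ratio was -1.29, -1.53 and -1.66 on the 3 control arrays and -0.77, -1.03 and -1.02 on the 3 PM2.5 arrays. The groups did not overlap, and these medians averaged -1.49 ± 0.186 for control and -0.94 ± 0.147 for PM2.5 arrays (SD, n = 3 each). Over the 70843 probes of the array with sufficient input and unmarked on all 6 arrays they averaged -0.36 ± 0.0583 and -0.18 ± 0.134, which also did not overlap. They differ from 0 because the centre of an array was taken over a larger set, all probes with sufficient input that were unmarked on that array. Their gap between the groups thus depends on the choice of centre. Centred on the 70843 probes themselves, each array has a median of 0 there by construction. The cluster's difference was then 0.36 in place of 0.55. In the cluster 60.9% ± 2.65 of control values and 48.8% ± 3.76 of PM2.5 values were under -1 (SD, n = 3 each), against 31.7% ± 2.92 and 22.6% ± 1.8 over those 70843 probes. Above 0 lay 13.7% ± 1.58 of the control values and 18.8% ± 4.85 of the PM2.5 values, with overlapping groups.

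Probe length went along with the level. Among the 189 averaged probes of 60 nt the median ratio was -2.27 ± 0.243 in controls, and among the 88 of 45 to 49 nt it was -0.48 ± 0.056 (SD, n = 3 arrays). The same lengths elsewhere on the array had control medians of -1.94 ± 0.231 and 0.00 ± 0.00836. At 50 to 54 nt the control medians were close, with -0.93 ± 0.136 in the cluster and -0.85 ± 0.159 elsewhere, and at 55 to 59 nt they were -1.96 ± 0.185 and -1.34 ± 0.205. When each probe length was centred by itself, the control mean of R1 was -0.49 in place of -1.56. The part of probe length in the low level was tested no further, so a lower region is not taken to hold less captured DNA than a higher one.

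R1, the region with most probes, was followed in windows of 5 kb from its first probe. The control mean was -1.07 in the window at 0 to 5 kb, -1.49 at 5 to 10 kb and -1.81 at 10 to 15 kb. It was -1.10 at 15 to 20 kb and then -2.16 at 20 to 25 kb, the lowest of the 9 windows with at least 5 averaged probes. From there it was -1.75, -1.79, -1.22 and -1.25 in the windows up to 45 kb. The window at 45 to 50 kb, at -2.37, rests on 4 probes. In these 9 windows the PM2.5 mean was higher by 0.34 to 0.70 and the groups did not overlap. The outline was shared, since the window at 20 to 25 kb was the lowest of the 9 on each array.

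**Figure D1:**
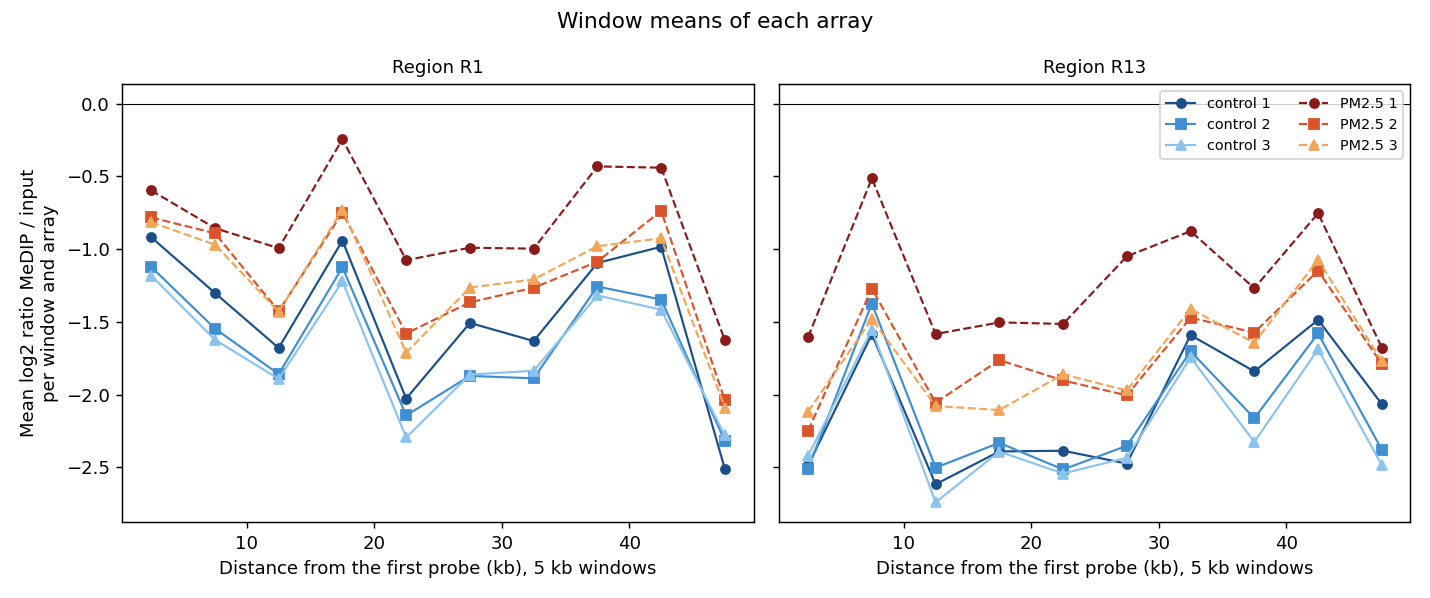
Mean log2 ratio of immunoprecipitated over input DNA (vertical axis) in windows of 5 kb along R1 and R13 (horizontal axis, kb from the first probe of the region), 1 line for each of the 6 arrays. In 9 of 9 windows of R1 with at least 5 averaged probes, and in 9 of 10 windows of R13, each PM2.5 array lies above each control array, and the lines keep much the same outline.

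R13, the other region of about this size, had the lowest control mean of the 14 averaged regions. Its windows had control means between -2.62 (10 to 15 kb) and -1.505 (5 to 10 kb). The PM2.5 mean was higher in each window, by 0.42 to 0.74. In the window at 5 to 10 kb the groups overlapped, with PM2.5 replicate 3 at -1.48 and control replicate 2 at -1.37, and in the other 9 windows they did not. Its probes were about as long as those of R1, with a mean of 55.1 nt against 56.0 nt.

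At the scale of single probes the profile was jagged. Control means of the 129 probes of R1 ranged from -5.37 to 1.06, with 25% of them under -2.84 and 25% above -0.34. In R13 they ranged from -5.31 to 0.88, with a median of -2.07. Directly neighbouring probes resembled each other little, with a correlation between 0.0515 and 0.0878 on the 6 arrays over 243 neighbouring pairs of the cluster. Over 27620 such pairs of the whole array it was 0.233 to 0.329. Those pairs come from regions of very unlike level, with control means from -5.21 to 1.49, against -2.11 to -0.40 in the cluster. The part of this in the lower correlation was not tested, so the cluster is not taken to be more jagged than other regions. The jagged pattern nonetheless recurred from array to array. Over the 492 probes, pairs of arrays correlated at 0.901 to 0.976 without PM2.5 replicate 1 and at 0.8 to 0.845 with it, and over the whole array at 0.904 to 0.975 and 0.83 to 0.848. These correlations are over probes, which are not replicates, and all arrays share the same probe sequences.

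**Figure D2:**
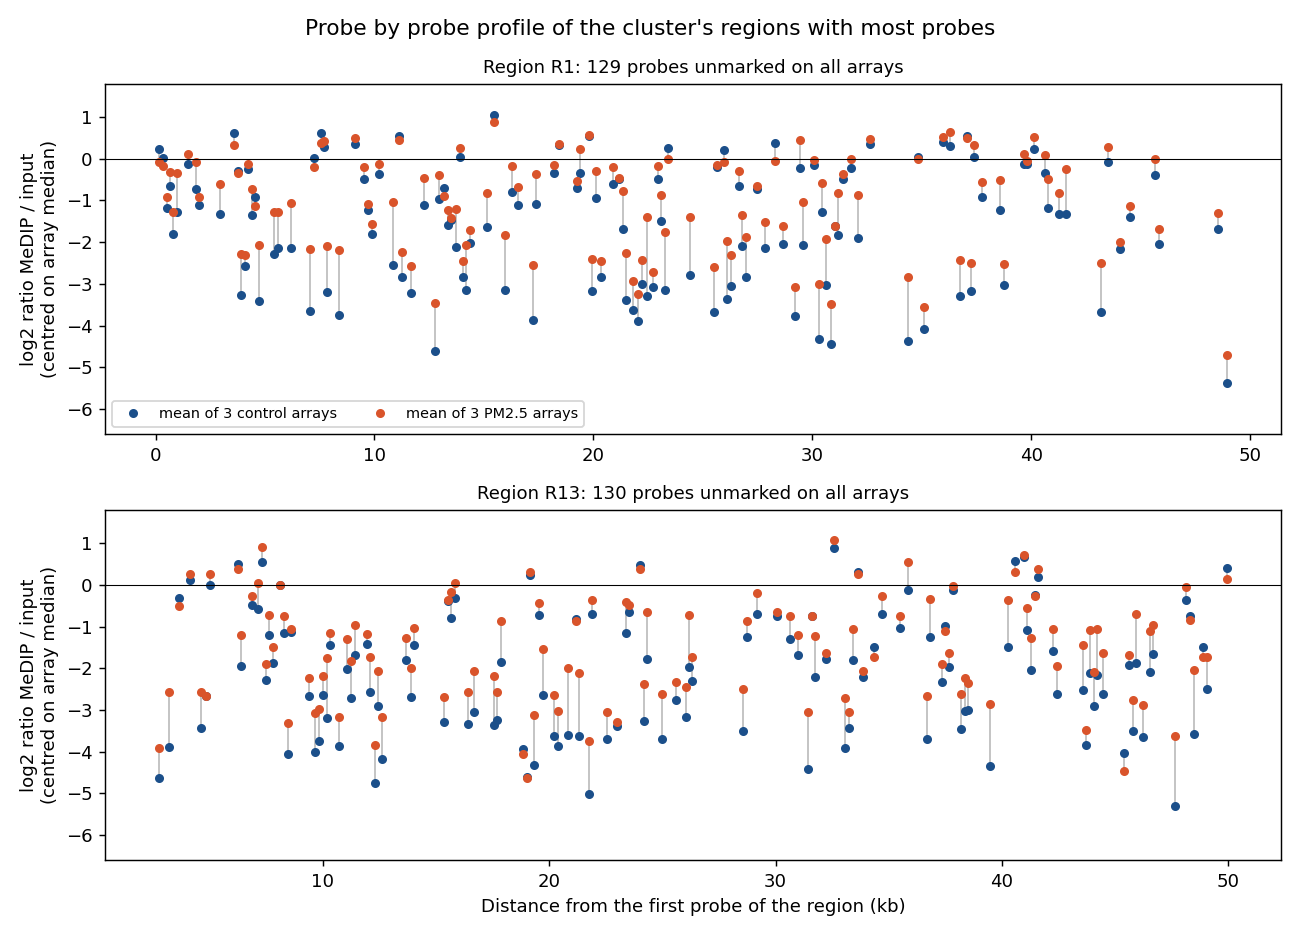
Log2 ratio (vertical axis) of each averaged probe against its distance in kb from the first probe of R1 (upper panel, 129 probes) and R13 (lower panel, 130 probes). Blue points are means of 3 control arrays, orange points means of 3 PM2.5 arrays, and grey lines join the 2 points of a probe; low and high probes stand side by side along both regions.

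The extremes of R1 show what the low ratios rest on. The lowest probe in controls, from 115361063 to 115361121, had -5.92, -5.09 and -5.10 on the control arrays and -4.35, -5.02 and -4.75 on the PM2.5 arrays. The next were the probes from 115324881 (control mean -4.61, PM2.5 mean -3.47) and from 115342960 (-4.45 and -3.48). At these 3 probes Cy5 was not well above background on any of the 6 arrays, so the ratio is only a bound and no fold is given. The highest probe, from 115327591 to 115327643, had 1.31, 1.02 and 0.84 on the control arrays against 0.81, 0.78 and 1.04 on the PM2.5 arrays. It was followed by the probes from 115319647 (0.63 and 0.37) and from 115315687 (0.62 and 0.34). These 3 had Cy5 well above background on every array, and their groups overlapped. The low and the high probes were picked by control mean alone. Such a choice by itself moves the PM2.5 mean towards the middle, so their group differences are not read.

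The channels were also read apart. Signals were first compared at the 492 averaged probes, which had been kept because their input was well above background. Their input was slightly low against the median signal of the 70843 array probes kept in the same way. On the log2 scale it was -0.08 ± 0.0294 for control and -0.14 ± 0.0281 for PM2.5 arrays (SD, n = 3 each). The immunoprecipitated DNA was much lower, at -1.20, -1.18 and -1.20 on the control arrays and -0.93, -1.11 and -0.86 on the PM2.5 arrays. The groups did not overlap in either channel, with PM2.5 lower in input and higher in immunoprecipitated DNA. In input, control replicate 2 at -0.106 and PM2.5 replicate 3 at -0.109 were nearly alike. Over all 1138 probes the input was clearly dimmer than over the array, on each array. The median input spot exceeded its local background 2.32 to 10.3 times in the cluster and 3.83 to 18.4 times over the array. Cy5 was well above background at 39.1% ± 2.47 of the cluster's 1138 probes on control and 36.7% ± 3.6 on PM2.5 arrays, against 74.7% ± 1.82 and 72.4% ± 2.22 over the array. Of the 492 averaged probes, 169 had Cy5 above background on all 6 arrays and 175 (35.6%) on none, against 12.99% on none over the array.

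**Figure D3:**
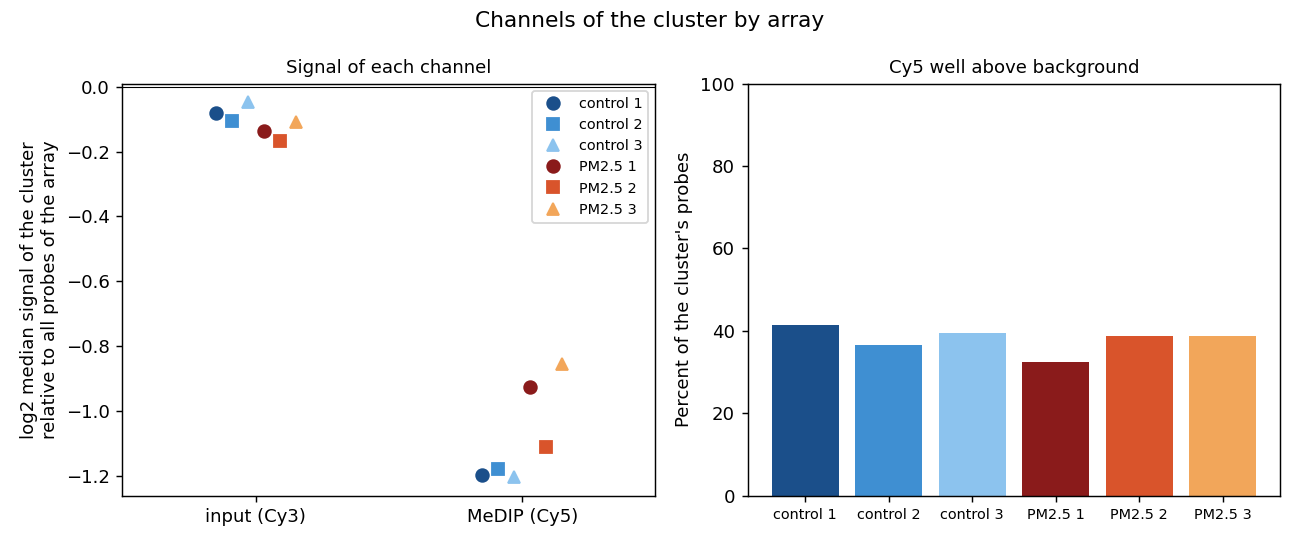
Left, log2 of the median input (Cy3) and immunoprecipitated (Cy5) signal of the cluster's 492 averaged probes, 1 point for each of 6 arrays. The reference is the median of the 70843 array probes with sufficient input and unmarked on all arrays. Right, percent of the cluster's 1138 probes with Cy5 well above background on each array. Cy5 lies between -1.20 and -0.86, far below the input, and the share of detected probes is 32.5% to 41.4%.

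PM2.5 was set against control region by region. In R1 the mean ratio was -1.40, -1.61 and -1.66 on the control arrays against -0.79, -1.15 and -1.16 on the PM2.5 arrays. Each PM2.5 array lay above each control array, with a difference of 0.53 and a standard error of 0.153. In R13 the values were -2.04, -2.09 and -2.20 on the control arrays against -1.21, -1.67 and -1.71 on the PM2.5 arrays, a difference of 0.58 with a standard error of 0.16. This was the largest difference among the 14 regions. PM2.5 replicate 1 was the highest array in both, well above the other PM2.5 arrays. With each array centred on probes unmarked on all arrays the gap in R1 was smaller. There R1 was at -0.76 on PM2.5 replicate 1 against -0.92 and -0.89 on PM2.5 replicates 2 and 3.

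The second block was alike. R8, from 116027126 to 116061763, had -1.47, -1.65 and -1.76 on the control arrays against -1.02, -1.19 and -1.15 on the PM2.5 arrays. R10, from 116066933 to 116079467, had -1.36, -1.62 and -1.72 in controls against -0.98, -1.14 and -1.02. R12, from 116103088 to 116107412, had -1.70, -1.78 and -1.84 against -1.003, -1.35 and -1.26, and rests on 4 probes. The groups did not overlap in these 3 regions, and the differences were 0.51, 0.52 and 0.57. At their averaged probes with Cy5 above background on all arrays the differences were 0.29 in R8 (23 probes), 0.01 in R10 (7 probes) and -0.009 in R12 (2 probes). Among all regions with at least 2 such probes this difference ranged from -0.08 to 0.35, with a median of 0.23. R11, from 116081589 to 116096510, differed by 0.50, and R2, R3, R4 and R6 by 0.41, 0.46, 0.42 and 0.38, again without overlap.

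The smaller regions varied more. R7, from 116020987 to 116026025, had -1.22, -0.81 and -0.98 on the control arrays against -0.56, -1.02 and -1.11 on the PM2.5 arrays, so the groups overlapped. R15, from 116710730 to 116712483, had -0.30, -0.47 and -0.42 on the control arrays against -0.74, -0.21 and -0.49 on the PM2.5 arrays, and it was the only averaged region of the 14 with a lower PM2.5 mean (-0.08). R9, from 116063553 to 116065907, differed by 0.28 and R14, from 116593332 to 116595032, by 0.38, without overlap. These 4 regions rest on 3 to 5 probes each. In R14 only 1 of the 3 averaged probes was higher on average in PM2.5, and its probe differences ran from -0.15 to 1.31. The 2 probes of R14 with Cy5 above background on all arrays differed by -0.08.

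**Figure D4:**
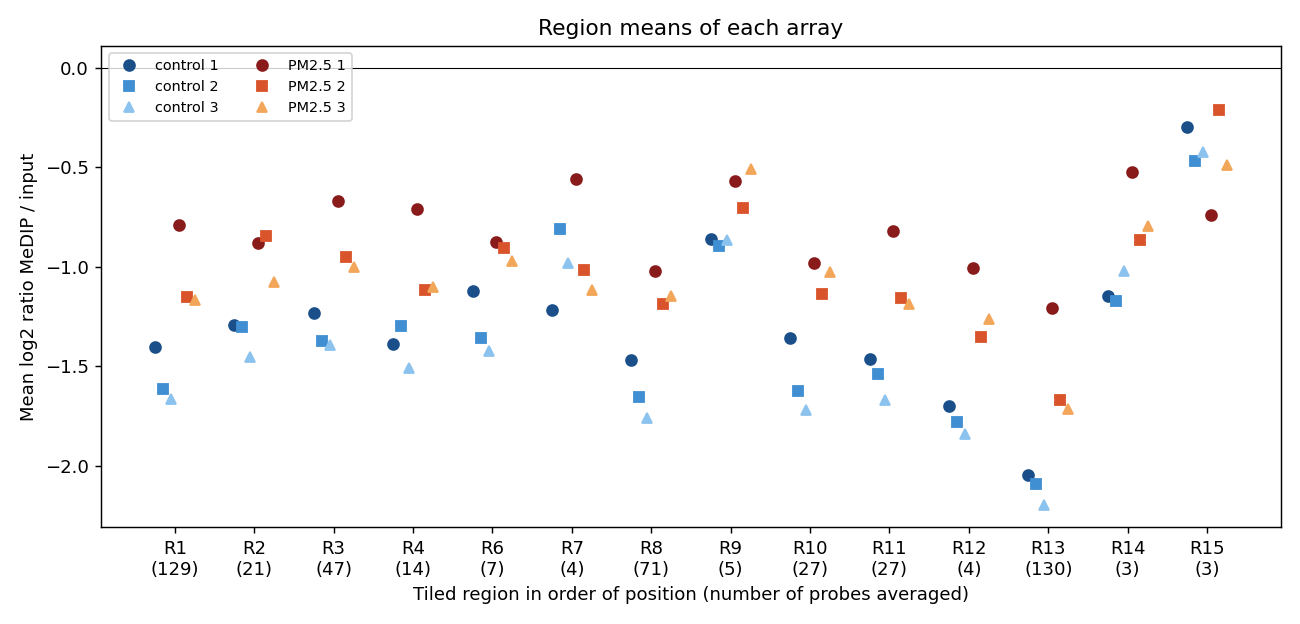
Mean log2 ratio (vertical axis) of the 14 averaged regions in order of position, with the number of probes averaged in brackets, 1 point for each of the 6 arrays. The groups do not overlap in 12 regions, with PM2.5 above control, and overlap in R7 and R15.

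In 12 of the 14 regions the groups did not overlap with PM2.5 higher, where 37.9% of the 14786 tested regions of the array did the same. With limma across all regions, 4 of the 14 (R8, R10, R12 and R13) passed an adjusted p of 0.05 with PM2.5 higher and 0 lower (11 and 0 at an unadjusted p under 0.05), against 9.79% of all regions higher and 0.0473% lower. The counts are descriptive, since the same contrast led to the choice of the stretch. No region of the whole array, and so none of the cluster, passed with scale, quantile or normexp normalisation, with each probe length centred by itself, or in the authors' values. None of the cluster passed with loess (2.26% of all regions higher), a common centre (2.16%), no input filter (2.11%), trend and robust estimation (1.43%), both channels above background (0.187%; 13 regions tested) or slide as a random block (0.0609%). None passed without control replicate 2 (0.00676% of all regions) or control replicate 3 (0 on the array). Without control replicate 1 or PM2.5 replicate 3, 2 passed (7.61% and 10.3% of all), and without PM2.5 replicate 2, 1 passed (7.12%).

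Differences over the array as a whole were not centred on 0. The median difference over all 14786 regions was 0.24, so R1 stood 0.29 above it, while R7 and R15 lay under it. When each array was centred on probes unmarked on all arrays the array's median difference was 0.0501 and that of R1 was 0.34, again 0.29 apart. The distance was 0.15 with scale normalisation, 0.13 with quantile normalisation, 0.10 with normexp correction, 0.06 with loess and 0.05 with each probe length centred by itself. In those settings R1 differed by 0.30, 0.24, 0.22, 0.14 and 0.13, and the groups overlapped in R1 with quantile, loess and length centring. In the setting kept to probes with both channels above background, 43 of them in R1, R1 differed by 0.22, without overlap.

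Differences within the cluster were larger at lower levels, and so were those elsewhere. Among averaged probes whose mean over all 6 arrays was under -2.5, the median difference was 0.87 in the cluster and 0.90 in the rest of the array (4801 probes). Between -2.5 and -1.5 it was 0.76 in the cluster (102 probes) and 0.71 in the rest. Between -1.5 and -0.5 it was 0.42 (125 probes) and 0.40. At -0.5 and over it was 0.13 (150 probes) and 0.05. Each of these medians lay within the quartiles over probes of the other set.

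Detection of the immunoprecipitated DNA sorted the differences in the same order. The 175 probes with Cy5 above background on no array had a median difference of 0.82, as did the 9030 such probes elsewhere (0.82). The 148 probes with Cy5 above background on some arrays had 0.43, against 0.39 elsewhere. The 169 probes with Cy5 above background on all arrays had 0.20, against 0.0892 elsewhere, and the PM2.5 mean was the higher one at 77.5% of them, against 60.6%. For these 169 the median ratio was -0.25, -0.39 and -0.37 on the control arrays against 0.02, -0.16 and -0.24 on the PM2.5 arrays. The groups did not overlap there, although control replicate 1 and PM2.5 replicate 3 were nearly alike.

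**Figure D5:**
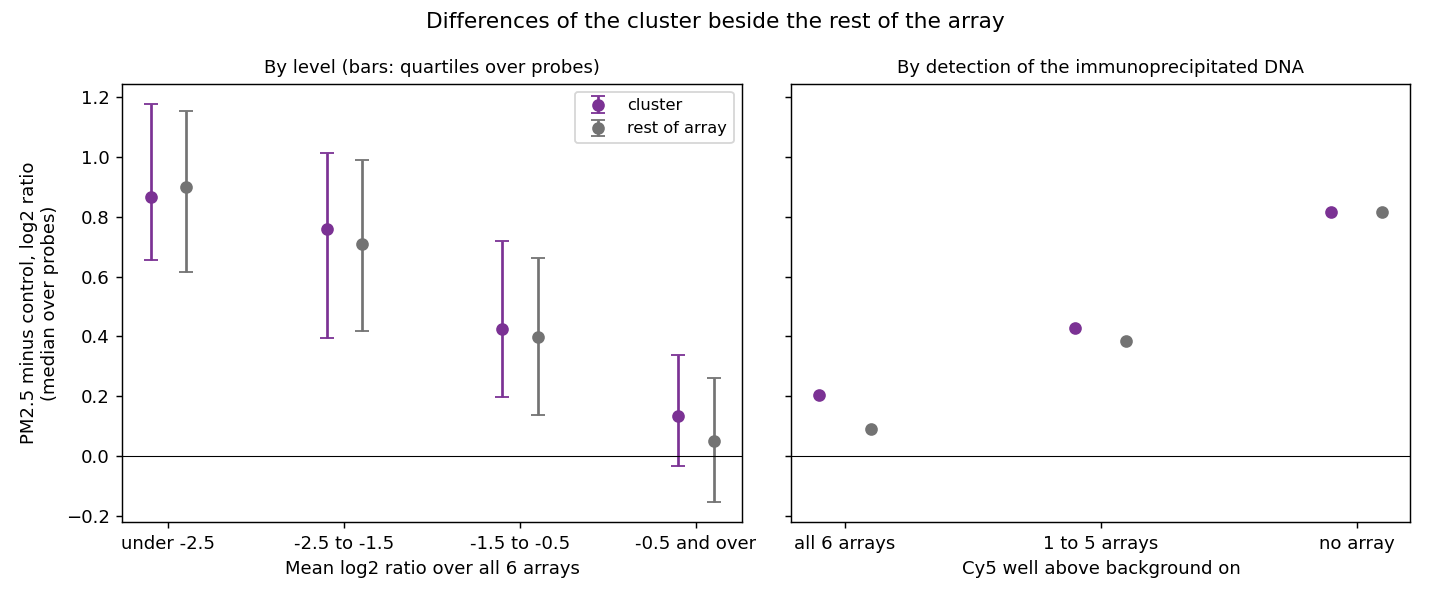
Median difference of PM2.5 minus control on the log2 scale (vertical axis) for averaged probes of the cluster (purple) and of the rest of the array (grey). Left, by the mean ratio over all 6 arrays, with bars from the lower to the upper quartile over probes; right, by the number of arrays with Cy5 well above background. Cluster and rest lie close at each level, from 0.87 and 0.90 at the lowest to 0.13 and 0.05 at the highest.

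Among single probes of the cluster, 426 of the 492 (86.6%) were higher on average in PM2.5, against 69.9% of all probes unmarked on all arrays. The groups did not overlap at 182 probes with PM2.5 higher (37.0%, against 24.1% over the array) and at 2 with PM2.5 lower (0.407% against 4.42%). PM2.5 replicate 1 was the highest array at 262 of the 492 probes (53.3%, against 51.5% over the array) and control replicate 3 the lowest at 191 (38.8% against 26.6%). The median difference was 0.46, and 80% of the probes lay between -0.05 and 1.16. The difference of a probe said little about that of its neighbour, with a correlation of -0.0452 in the cluster and 0.2 over the array. These are not like for like, since region differences spanned -0.08 to 0.58 in the cluster and -0.79 to 1.52 over the array.

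With limma across 135548 probes, 31 of the cluster's 636 tested probes passed an adjusted p of 0.05 with PM2.5 higher (4.87%, against 1.3% of all tested probes) and 0 with PM2.5 lower, against 0.0059%. At an unadjusted p under 0.05, 228 were higher (against 14.6% of all) and 8 lower (against 3.22% of all). R13 held 10 of the 31 and R1 held 9. Fitted differences ranged from 0.88 to 1.90, but at 23 of the 31 probes Cy5 was not well above background on any array, so their fitted sizes rest on undetected Cy5 in both groups and are not read as sizes of a change. Cy5 was above background on all arrays at 3 of them, which are named after their values were seen. The probe from 116191233 to 116191279 in R13 had -1.80, -2.09 and -2.04 on the control arrays against -0.36, -0.84 and -0.98 on the PM2.5 arrays. The probe from 116196805 to 116196855, also in R13, had -1.96, -2.41 and -2.28 on the control arrays against -1.14, -1.24 and -1.30 on the PM2.5 arrays. The third, from 116087456 to 116087511 in R11, was unmarked on 4 arrays, with -3.17 and -2.70 on control replicates 1 and 3 and -1.36 and -1.32 on PM2.5 replicates 2 and 3. The groups did not overlap at these 3 probes, but they were picked from those past the threshold, so this supports nothing. With control replicate 2 or 3, or PM2.5 replicate 2 or 3, left out, 0 probes of the whole array passed, the cluster's included (168, 156, 194 and 225 of the cluster higher at an unadjusted limma p under 0.05). With control replicate 1 left out, 26 of the cluster passed (1.47% of all probes higher). With PM2.5 replicate 1 left out, 57 passed higher and 2 lower (2.54% and 0.076% of all).

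Neighbouring probes with an unadjusted p under 0.05 and the same sign formed 19 runs of at least 3 probes in the cluster, all with PM2.5 higher, among 752 runs on the array. They held 78 of the 636 tested probes (12.3%), against 1.81% of tested probes over the array. R13 held 9 runs, R8 held 4, R1 and R11 held 2 each, and R3 and R10 held 1 each. The run with most probes, 7, lay in R13 from 116177155 to 116178998, with means of -3.05, -2.84 and -3.11 on the control arrays against -1.92, -2.39 and -2.42 on the PM2.5 arrays. In R11 from 116086980 to 116088441, 6 probes had -2.22, -2.28 and -2.52 on the control arrays against -1.15, -1.51 and -1.26 on the PM2.5 arrays. In R13 from 116210828 to 116212767, 6 probes had -2.73, -3.06 and -3.27 against -2.02, -2.10 and -1.90. The runs of R1 held 4 probes each and started at 115323761 and 115342409, with mean differences of 0.76 and 1.02. The groups did not overlap in any of the 19 runs, a property close to the rule that makes a run, and 38 of the 78 probes had Cy5 above background on no control array.

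Arrays were also compared within scanning days. Of the 14 regions, 12 had no overlap between the groups. In those 12 PM2.5 had to be higher within each day, so only R7 and R15 could go either way. On the day with control replicate 1 and PM2.5 replicate 3, PM2.5 was higher in 13 of the 14 regions, by a median of 0.28. Over all regions of the array 60.8% were higher that day, with a median of 0.0621. Control replicates 2 and 3, scanned with PM2.5 replicate 2 on another day, carry the same scan identifier and are taken to share a slide. On that day PM2.5 was higher in 13 of the 14, by a median of 0.45. Over all regions 74.99% were higher that day, with a median of 0.19. R15 was the exception on the first of these days and R7 on the second. The mean of R1 differed by 0.24 and 0.49. A further day held PM2.5 replicate 1 and no other array.

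The values that the authors deposited also placed the cluster low, but hardly set the groups apart. For the cluster and its regions they were taken over all probes, 276 in R1, without the filters that left 129 there above. Directly neighbouring probes of the cluster correlated at 0.596 to 0.647 in these values, against 0.0515 to 0.0878 for the ratio. The comparison is thus not like for like. The median of the authors' values over the 1138 probes was -0.76, -0.72 and -0.71 on the control arrays against -0.51, -0.74 and -0.76 on the PM2.5 arrays. Only PM2.5 replicate 1 stood apart, and PM2.5 replicates 2 and 3 overlapped with the controls. In R1 the difference was 0.0734, and over the 14 regions it ranged from -0.17 in R15 to 0.0869 in R10. In the 19 runs the mean difference in these values lay between -0.0804 and 0.52, with 1 run below 0.

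Across the series, PM2.5 replicate 1 differed from the other arrays, with 35.8% of all spots marked against 0.341% to 2.21% on the others, and 12.2% in the cluster. Without it, the cluster's median ratio differed by 0.46 in place of 0.55 and R1 by 0.40 in place of 0.53, with 4 regions past the threshold (11.4% of all regions higher). In the cluster the median input spot exceeded its surroundings 2.32 to 10.3 times on the 6 arrays, and the median Cy5 spot 2.4 to 3.71 times (spot over local background). Probe length, dim Cy5 and the spread of ratios on each array moved with these differences. The standard deviation over the cluster's probes was 1.47 ± 0.0391 on control and 1.23 ± 0.0298 on PM2.5 arrays (SD, n = 3 each), and 1.30 ± 0.0637 and 1.04 ± 0.0408 over the array. Their part in the differences was not tested.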

How the data were processed

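Each of 6 arrays carried immunoprecipitated DNA (Cy5) and input DNA (Cy3), per the labels. Spot intensity was extracted with Feature Extraction (version 11.0.1.1) and, per the file headers, is background-subtracted, spatially detrended and scaled by a linear dye factor. The authors also deposited log2 values of unstated scale and smoothing, used as an alternative, whose medians ranged over the arrays from -0.00596 to 0.027. Coordinates are on rn4, per the file headers.

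In R 4.3.3, log2(Cy5/Cy3) was centred on each array's median over unmarked probes with input well above background on all arrays. Region means took probes unmarked on all 6 arrays, with at least 2 per region. limma 3.58.1 (lmFit, eBayes, Benjamini-Hochberg) was run over the whole array as PM2.5 minus control. The same call was then run on simulated regions with the spread of the real ones. That simulation drew each array independently, so it does not cover arrays that share a slide. Exact permutation tests were not used, since 3 arrays against 3 cannot give a two-sided p below 0.1. Precision is limited by the number of arrays. The stretch, the settings and the lists were chosen with earlier results of these data known.

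Named were all regions with at least 20 probes, the 5 lowest and highest in controls, the 5 largest differences each way, regions with runs or past the threshold, the 5 kb windows of R1 and its 3 lowest and highest probes. Windows of R13 and the regions nearest to the stretch were added after seeing the data. Alternatives covered normexp (offset 50), scale, quantile and loess (span 0.3) normalisation, centring, filters, blocks and each array left out. The fit with slide as a block used a moment estimate of its correlation, 0.574 over regions and 0.52 over probes. Slides were told apart by a scan identifier in the file headers, so arrays with different identifiers need not be on different slides. Figures were drawn with matplotlib 3.10.9.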

Additional observations from a re-analysis of the deposited data

How the results depend on the processing

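In the setting reported, 4 of the 14 regions and 31 probes passed, R1 differed by 0.53 and the cluster's median by 0.55, and the control levels were -1.56 for R1 and -1.49 for the cluster. Both differences stayed above 0 in every alternative run, but arrays were left out in the reported setting only. The groups did not overlap for R1 or the cluster in that setting, so leaving out an array could not turn the sign. A replicate block leaves both differences as they were by design. In the authors' values R1 was at -0.43 on PM2.5 replicate 1 and at -0.68 and -0.70 on PM2.5 replicates 2 and 3. The control arrays were at -0.67, -0.69 and -0.67. With length centring R1 was at -0.14, -0.45 and -0.48 on the PM2.5 arrays and -0.53, -0.48 and -0.47 on the control arrays. The number of regions past limma's adjusted threshold was 0 with normexp, scale, quantile or loess normalisation, a common centre, no input filter, both channels above background, length centring, the authors' values, slide as a random block, or trend and robust estimation (5, 0, 0, 3, 7, 8, 3, 0, 0, 11 and 11 higher at an unadjusted p under 0.05). Over the whole array no region passed in the normexp, scale, quantile and length-centred settings and in the authors' values. It was 1 with region medians (5.01% of all regions higher), 7 of 10 with at least 5 probes per region (20.3%), 8 with scanning day as a block (17.2%) and 12 of 36 with gaps of at most 500 bp (10.2%). The number of probes was 0 with normexp, scale or quantile normalisation, no input filter, both channels above background, length centring, the authors' values, or trend and robust estimation (145, 83, 74, 299, 54, 89, 63 and 202 higher and 9, 7, 19, 15, 6, 58, 19 and 7 lower, unadjusted). Over the whole array 0 probes passed in these settings, except 1 without an input filter. It was 3 with slide as a random block (0.0598% of all probes higher), 10 with loess (0.668%), 19 with a common centre (0.648%) and 93 with scanning day as a block, 90 higher and 3 lower (4.87% and 0.48% of all).

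For R1 and for the cluster, the differences were 0.22 and 0.22 with normexp, 0.30 and 0.34 with scale, 0.24 and 0.27 with quantile, 0.14 and 0.16 with loess, 0.34 and 0.36 with a common centre, 0.22 and 0.19 with both channels above background, 0.13 and 0.18 with length centring, and 0.0734 and 0.0608 in the authors' values. The cluster's difference was 0.32 with marked spots kept and 0.37 without an input filter. Control levels of R1 and the cluster were -0.73 and -0.76 with normexp, -0.67 and -0.61 with loess, -1.20 and -1.13 with a common centre, -1.22 and -1.08 with marked spots, -1.16 and -1.04 without an input filter, -0.43 and -0.52 with both channels, -0.49 and -0.53 with length centring, and -0.68 and -0.73 in the authors' values. R1 was at -1.40 with quantile normalisation and -1.34 as a median. The settings also differ in the probes used. R1 rests on 129 probes in the reported setting, 166 with marked spots and 238 without an input filter. It rests on 43 with both channels and 276 in the authors' values, so these levels are over unlike sets of probes. The causes were not tested.

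With 1 array left out in turn, the regions past the threshold ranged from 0 to 4 and the probes from 0 to 59, the difference of R1 from 0.40 to 0.60 and that of the cluster from 0.46 to 0.65, and their control levels from -1.64 to -1.51 and from -1.59 to -1.41.

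Same-numbered arrays deviated together by correlations of -0.00814, 0.113 and -0.148. Differently numbered arrays reached -0.196 (control replicate 1 with PM2.5 replicate 2) and 0.196 (control replicate 1 with PM2.5 replicate 3, scanned on the same day). Whether the numbers pair the samples cannot be told from these values, so the main fit used no pairing. With a replicate block, 8 regions and 86 probes passed (19.0% of all regions and 4.14% of all probes higher), and the differences were 0.53 and 0.55.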
